A study of Mus musculus with 3 samples.

Results

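The tubulin, neurofilament and neuronal cytoskeleton messages are a set of 55 listed genes. They encode tubulins, microtubule-associated proteins, neurofilaments, actins and their regulators, spectrins, ankyrins, adducins and growth cone proteins. They were taken by symbol from count tables with 32531 rows of gene symbols, and all 55 of 55 had a row. At least 1 read was counted for 18377 of those symbols. The mice were untreated adults of the transgenic line Slc17a6-TRAP JX883, which carries an EGFP-tagged ribosomal protein Rpl10a, named for Slc17a6, the gene of the vesicular glutamate transporter VGLUT2. Tagged polysomes were pulled from prefrontal cortex homogenate with antibodies to EGFP (translating ribosome affinity purification, TRAP), and the bound RNA was sequenced. The 3 libraries, replicates 1, 2 and 3, form 1 group, and each pooled the tissue of 3 mice. Nothing in the labels says whether the pools differed in other ways, and no input RNA, untagged tissue or second group was analysed, so a level is an abundance in the purified RNA and not an enrichment.

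Microtubules are hollow tubes of α- and β-tubulin pairs along which motor proteins carry cargo through axons and dendrites. Microtubule-associated proteins bind and space them, and stathmins hold free tubulin pairs and favour disassembly. Neurofilaments are the intermediate filaments of neurons and set the calibre of large axons. Under the membrane, spectrin tetramers link short actin filaments, which adducins cap, and ankyrins tie this lattice to channels and adhesion molecules. In growth cones, Gap43, Basp1 and Marcks bind the inner membrane, and the collapsin response mediators (CRMPs, encoded by Crmp1 and the Dpysl genes) bind tubulin.

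Levels are given in CPM (counts of a gene relative to all counts on named genes in its library). The highest and lowest genes named by CPM are those with most and fewest counts, without regard to length. Differences and ratios between genes are in TPM, which also divides by the length of the merged exons. Replicates 1, 2 and 3 held 12592174, 8964137 and 12648577 counts on named genes. Marker genes of excitatory neurons summed to 4650, 4696 and 5082 CPM, against 791, 712 and 739 CPM for inhibitory neurons, 1326, 1481 and 1520 CPM for astrocytes, 427, 573 and 588 CPM for oligodendrocytes, 49.8, 57.5 and 65.9 CPM for oligodendrocyte precursors, and 55.7, 52.4 and 72.6 CPM for immature neurons. Microglial markers summed to 24.1, 29.1 and 31.5 CPM. Of these, Csf1r was highest at 8.58, 14.4 and 16.0 CPM, and C1qa alone had 0 counts in every library. Endothelial markers summed to 7.81 to 10.2 CPM and mural markers to 22.8 to 33.7 CPM. Some of these sums rested on few genes, since Camk2a averaged 2884 CPM, Gad2 626 CPM and Slc1a2 985 CPM. By median, the listed markers were at 691 CPM for excitatory neurons, 81.6 for oligodendrocytes, 31.0 for inhibitory neurons and 24.0 for astrocytes. Slc17a6 itself had 857, 723 and 913 CPM. In bulk RNA of this kind, fewer cells of a type and less RNA per cell cannot be told apart.

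Several tubulin isotypes are near copies in their coding sequence, and this bears on their values because reads without a unique place were left uncounted. The last 90 coding bases of the α-tubulin Tuba4a and of 5 β-tubulins, stop codon included, are shown because they encode the carboxy-terminal tail, the stretch in which isotypes differ most in protein. They are from the annotated transcripts of GENCODE M21 (mm10) and are written 5′ to 3′ on the coding strand. Capitals mark bases outside any run of 12 or more bases found in the coding sequence of another listed tubulin of the same type.
Tuba4a: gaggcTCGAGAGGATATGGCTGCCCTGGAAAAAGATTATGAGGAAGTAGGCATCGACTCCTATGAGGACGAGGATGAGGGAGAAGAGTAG
Tubb4a: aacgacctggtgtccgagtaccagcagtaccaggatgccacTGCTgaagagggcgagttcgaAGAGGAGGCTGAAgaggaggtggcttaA
Tubb2a: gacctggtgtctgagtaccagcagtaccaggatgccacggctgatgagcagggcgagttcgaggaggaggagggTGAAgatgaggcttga
Tubb2b: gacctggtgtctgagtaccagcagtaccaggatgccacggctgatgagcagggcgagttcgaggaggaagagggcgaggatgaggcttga
Tubb5: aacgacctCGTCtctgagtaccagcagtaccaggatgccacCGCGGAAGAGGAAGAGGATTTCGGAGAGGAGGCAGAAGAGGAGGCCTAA
Tubb3: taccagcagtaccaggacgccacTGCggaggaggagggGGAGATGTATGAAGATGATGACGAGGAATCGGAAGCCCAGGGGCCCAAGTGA

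The end of Tuba4a lies at chr1:75215622-75215711 on the minus strand. Those of the β-tubulins lie at chr17:57080690-57080779 (minus) for Tubb4a, chr13:34074468-34074557 (minus) for Tubb2a, chr13:34127471-34127560 (minus) for Tubb2b, chr17:35834982-35835071 (minus) for Tubb5 and chr8:123421593-123421682 (plus) for Tubb3. Tuba1a and Tuba1b differed at 23 of 1356 coding bases, an identity of 98.3%. Tubb2a and Tubb2b differed at 47 of 1338 bases, with 3 mismatches in the printed end, and Tubb2b has no capital there. In Tuba4a, 85 of the 90 bases are in capitals. Tubb4a and Tubb5, whose coding sequences have the same length, were 83.5% identical.

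Over the whole of the longest annotated transcript, windows of 50 bases were looked up in the annotated transcripts of all other genes. Such windows made up 83.1% of Tuba1b, 75.5% of Tuba1a and 61.0% of Tuba1c, and Tuba1c was the gene that shared most with Tuba1a and Tuba1b. They made up 49.6% of Tubb2a, mostly shared with Tubb2b, and 55.5% of Tubb4b, mostly shared with the pseudogene Tubb4b-ps1. For Tuba4a the 48.8% was shared almost wholly with Stk16, a kinase gene whose annotated exons overlap it. Nefl (31.8%) and Nefm (29.3%) share windows because their annotated exons overlap on opposite strands of chromosome 14. By contrast, the share was 0.18% for Tubb4a, 0.12% for Tubb5 and 0 for Tubb3. In all, 16 of 55 members shared 10% or more of their windows and 24 shared none. Counts of the 16 are uncertain, since 12.7% to 13.7% of all count lines in each library were reads with no unique place and another 2.68% to 2.84% were reads falling in more than 1 gene.

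**Figure D1:**
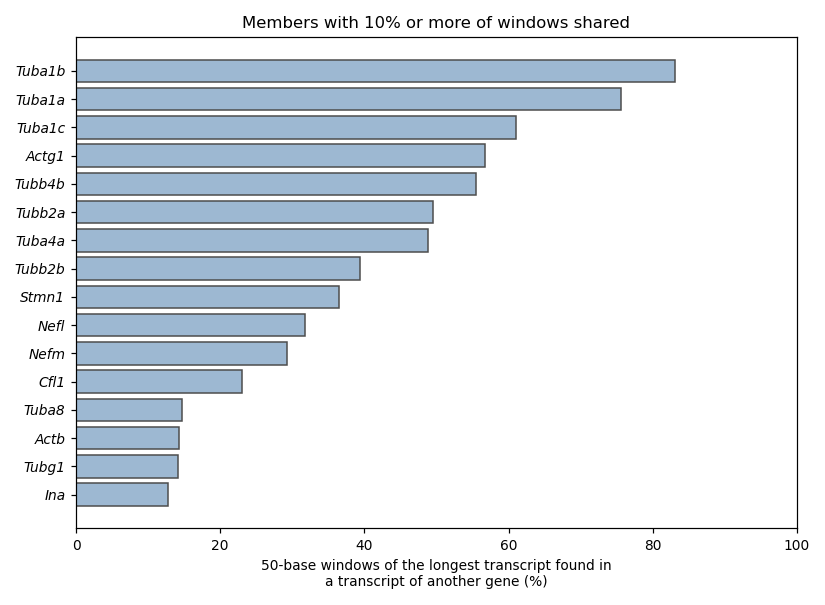
Share of 50-base windows of the longest transcript that also occur in an annotated transcript of another gene, for the 16 members at 10% or more, as bars along the horizontal axis (percent). Tuba1b is at the top with 83.1% and the α-tubulins Tuba1a and Tuba1c follow.

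The set was abundant. All 55 members reached 1 CPM or more in every library, as did 67.0% of genes with a count. The median member had 265 CPM, against 8.45 CPM over genes with a count, and 38 of 55 members (69.1%) averaged 100 CPM or more, against 11.7% of genes with a count. Together the members held 2.54% ± 0.14 of counts (SD, n = 3), with sums of 26023, 26388 and 23860 CPM. Of the 100 highest genes by CPM 8 were members, and 24 were among the 500 highest. In CPM the members ran from 4.11 for Tubb6 to 3781 for Map1b, whose rank was 8 among all genes. In TPM with merged exons they ran from 8.43 for Dcx to 5239 for Tubb4a. With lengths counted as 50-base windows not shared with another gene, Tuba1a was highest, at 10690 TPM against 5239 for Tubb4a. This length was used for members only, and all other genes kept merged exons. The read length is not given, so the window of 50 bases was a choice, and values of members with many shared windows depend on it.

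**Figure D2:**
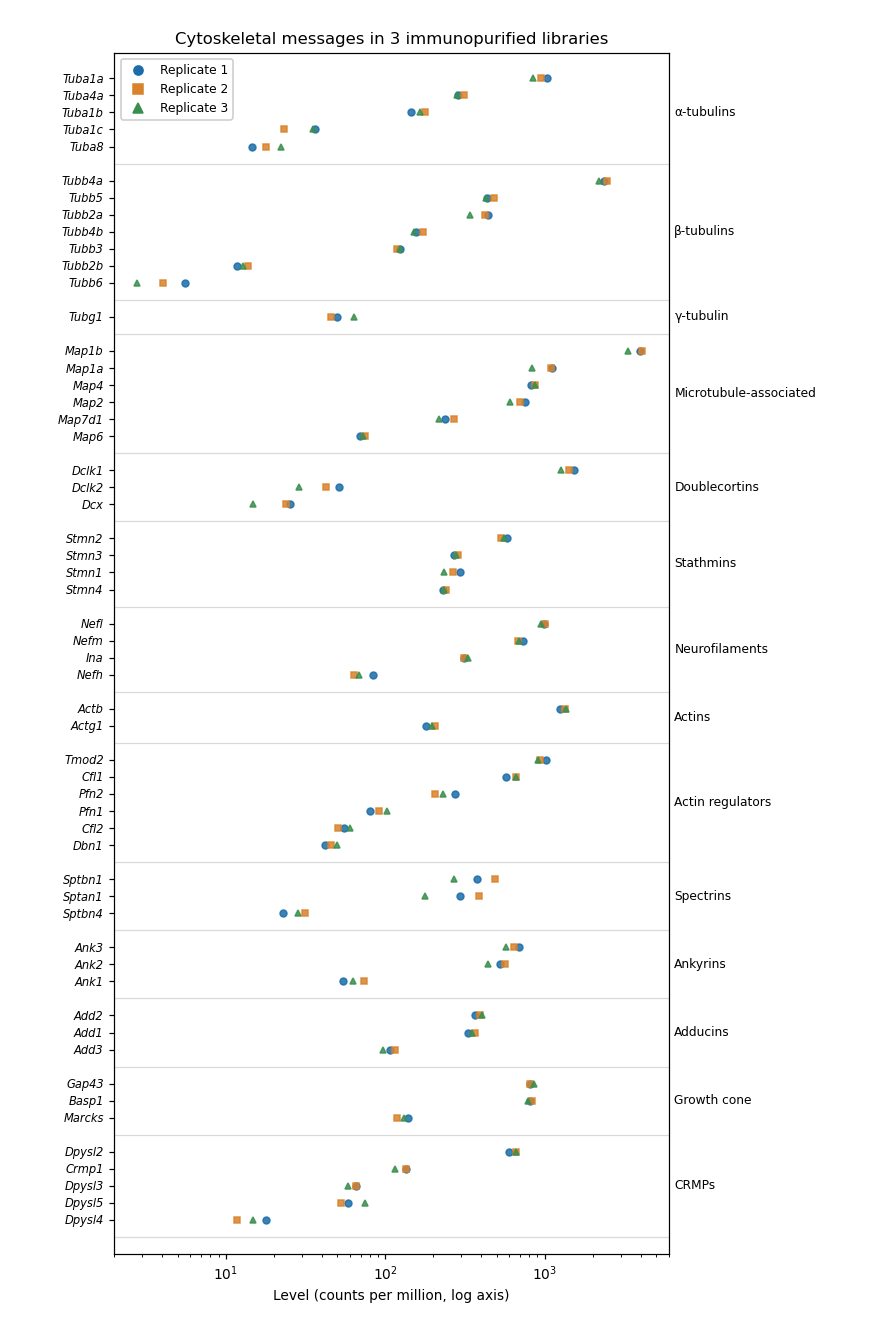
CPM of the 55 members on a logarithmic horizontal axis, 1 row per gene, grouped by class and ordered by mean within a class, with 1 symbol per replicate. Map1b and Tubb4a lie farthest right at means of 3781 and 2332 CPM, and Tubb6 farthest left at 4.11 CPM.

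Among the β-tubulins, Tubb4a was far above the others. It had 2358, 2458 and 2180 CPM in replicates 1, 2 and 3, backed by 22031 counts or more in each library, and its mean of 5239 TPM put it at rank 7 of all genes per length. The gene lies at chr17:57080066-57087782. It made up 66.3% ± 0.57 of summed β-tubulin TPM (SD, n = 3). Tubb4a is made in neurons and also in myelinating oligodendrocytes, whose markers summed to 427 to 588 CPM. The part of oligodendrocytes in the Tubb4a level was not tested.

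Tubb2a, a main neuronal β-tubulin, had 438, 420 and 340 CPM, or 15.7% ± 1.2 of the family per length. The widely expressed Tubb5 had 436, 480 and 426 CPM, and the broadly expressed Tubb4b had 157, 172 and 152 CPM. Tubb3, the class III isotype used as a marker of neurons, had 124, 118 and 124 CPM. Per length, Tubb3 was lower than Tubb2a, at 327 against 1241 TPM, by 1.91 ± 0.21 on the log2 scale (a mean difference of -1.91, SD, n = 3). The lowest isotypes were Tubb2b at 11.8, 13.7 and 12.7 CPM and Tubb6 at 5.56, 4.02 and 2.77 CPM, Tubb6 from 70, 36 and 35 counts. The 7 isotypes kept 1 order in TPM with no overlap between the libraries of neighbours, but that order rests on the length used. With lengths counted as unshared 50-base windows, Tubb4a held 52.0% ± 0.78, Tubb2a 24.5% ± 1.8 and Tubb4b 11.3% ± 0.48. Per coding length, Tubb2a was below Tubb5, with a difference in log2 TPM of -0.17, where merged exons gave 0.88 ± 0.17.

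Of the α-tubulins, Tuba1a, the main isotype of developing and adult neurons, had 1033, 943 and 840 CPM. Tuba4a, which lacks the terminal tyrosine encoded by Tuba1a, Tuba1b and Tuba1c, had 287, 312 and 282 CPM, and the widely expressed Tuba1b had 144, 178 and 164 CPM. Tuba1c had 36.2, 23.2 and 35.0 CPM and Tuba8 14.5, 17.7 and 22.1 CPM. Tuba1a held 73.4% ± 2.7 of summed α-tubulin TPM, against 12.3% ± 1.7 for Tuba1b and 11.2% ± 0.76 for Tuba4a, and Tuba1b and Tuba4a overlapped across libraries. With unshared windows as the length, Tuba1a held 72.6% ± 3.0 and Tuba1b 18.8% ± 2.6. Summed β-tubulin TPM was 2.23 ± 0.080 times summed α-tubulin TPM (SD, n = 3), with 2.15, 2.31 and 2.24 in the 3 libraries. That ratio turned with unshared windows as the length, to 0.686 ± 0.020, and was 2.21 to 2.47 with the longest transcript or the coding length. The γ-tubulin Tubg1, part of the complex that nucleates microtubules, had 49.95, 45.5 and 63.8 CPM.

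**Figure D3:**
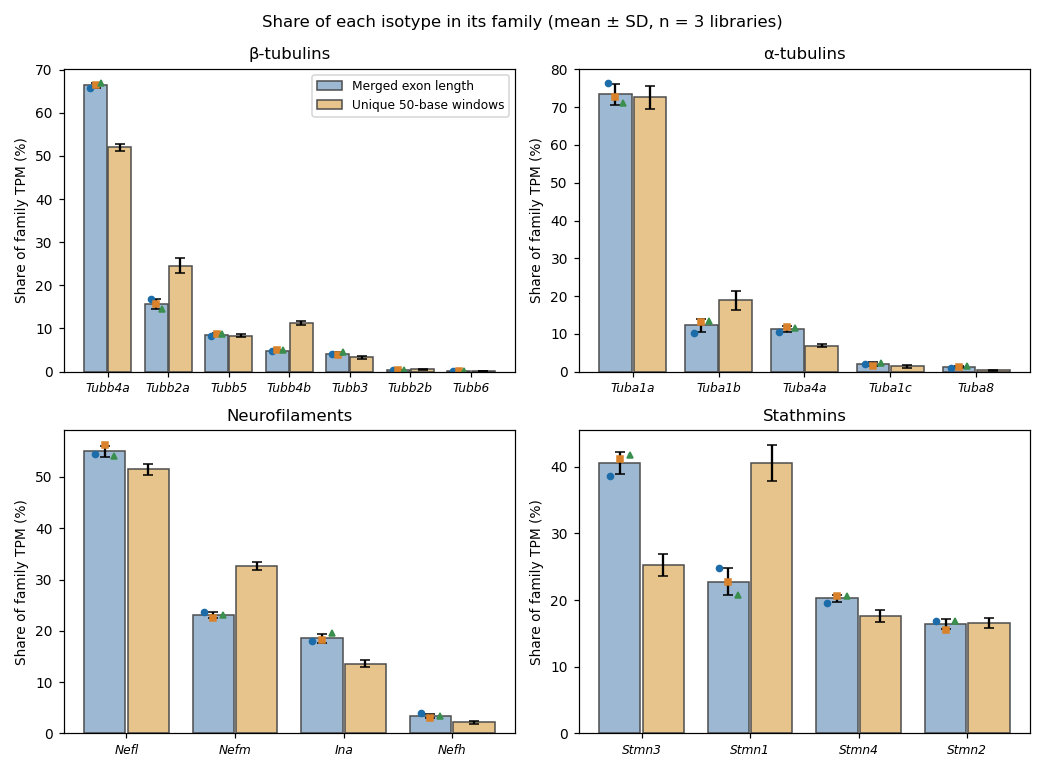
Share of summed family TPM (vertical axis, percent) of each isotype in 4 families, with the length of merged exons (blue bars, symbols for the 3 replicates) and with unshared 50-base windows as the length (tan bars). Bars are means and error bars SD over 3 libraries. Tubb4a and Tuba1a lead their families under both lengths, while in the stathmins Stmn3 leads under merged exons and Stmn1 under unshared windows.

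Microtubule-associated proteins were led by Map1b, which binds microtubules in growing axons, at 3971, 4062 and 3310 CPM. Map1a, its adult dendritic relative, had 1109, 1093 and 832 CPM, and both were lowest in replicate 3. Map4, expressed in many tissues, had 822, 871 and 871 CPM, and Map2, the marker of dendrites, had 754, 697 and 603 CPM. Map7d1, a relative of the kinesin cofactor Map7, had 238, 271 and 217 CPM, and Map6, which stabilises microtubules against cold, was lowest at 69.5, 75.0 and 72.7 CPM. Per length, Map1b was above Map1a by 1.53 ± 0.077 (log2 TPM, SD, n = 3). Map2 was below Map1a with merged exons, at -0.99 ± 0.093, but above it with the longest transcript (0.36), with coding length (0.16) and with unshared windows (0.34).

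Levels of the doublecortins lay far apart. Dclk1, a doublecortin domain joined to a kinase domain, had 1528, 1426 and 1256 CPM, and its relative Dclk2 had 50.9, 42.6 and 28.9 CPM. Dcx, which marks migrating and immature neurons, had 25.3, 23.9 and 14.7 CPM. All 3 were lowest in replicate 3. Summed markers of immature neurons were highest there at 72.6 CPM. Without Sox11, the marker with most counts, the other 5 summed to 36.9, 26.8 and 28.9 CPM, highest in replicate 1. Of those 5, Cd24a had most counts, at 21.4, 10.4 and 14.2 CPM. Sox4 was highest in replicate 2, Neurod1 and Dlx2 in replicate 3, and Igfbpl1, with 5 counts or fewer per library, in replicate 1. The markers thus shared no order of libraries, and the part of immature neurons in the doublecortin levels was not tested. Per length, Dclk1 stood above Dcx by 5.72 ± 0.27 on the log2 scale, or 459 against 8.43 TPM. Dclk2 missed the test of variation between libraries described below, with an adjusted p of 0.785 in edgeR.

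The stathmins were closer to each other. Stmn2, found in growth cones and regenerating axons, had 579, 533 and 553 CPM. Stmn1, the widely expressed founder of the family, had 293, 266 and 235 CPM. Stmn3 had 269, 286 and 279 CPM and Stmn4 had 230, 241 and 232 CPM, both neuronal forms. Which of them was highest per length depended on the length: Stmn3 held 40.5% ± 1.7 of the family with merged exons, Stmn1 40.6% ± 2.7 with unshared windows, and Stmn2 41.3% ± 1.3 with coding length. Stmn1 shares 36.5% of its windows, mostly with the predicted gene Gm11223.

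Of the neurofilament messages, Nefl, Nefm and Ina had ranges between libraries of 0.07 to 0.10 log2 units, and Nefh one of 0.38, against a median of 0.24 over the members. Nefl, the light chain and obligate core of the filament, had 987, 997 and 953 CPM, and Nefm, the medium chain, had 731, 681 and 694 CPM. Ina, the α-internexin that joins them in central neurons, had 311, 310 and 329 CPM, and Nefh, the heavy chain of large axons, had 83.2, 63.7 and 68.9 CPM. Per length Nefl was at 2.39 ± 0.10 times Nefm, 2.97 ± 0.17 times Ina and 16.3 ± 2.2 times Nefh (SD, n = 3). The ratio to Nefh was 27.7 ± 3.8 with coding length, and that to Nefm 1.52 ± 0.066 with the longest transcript. The order Nefl, Nefm, Ina, Nefh showed no overlap between libraries in TPM. Nefl, at chr14:68083863-68089095 on the plus strand, lies within the annotated span of Nefm on the minus strand, and use of strand in counting is not given in the sources used here. Reads from their overlap, 32.8% of Nefl exon bases shared with another gene, may therefore not have been told apart. With unshared windows, which come from the longest transcript, the shares were 51.5% ± 1.1 for Nefl and 32.7% ± 0.77 for Nefm. The ratio of Nefl to Nefm was then 1.58 ± 0.068. That was near the 1.52 of the whole longest transcript, so most of the change from merged exons came with the transcript used.

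Of the actins, Actb had 1251, 1344 and 1368 CPM and Actg1, the other cytoplasmic actin, had 181, 204 and 197 CPM. Among actin regulators, Tmod2, the neuronal tropomodulin that caps filament pointed ends, was highest by CPM at 1025, 928 and 906, and Dbn1, the drebrin of dendritic spines, lowest at 42.2, 46.0 and 50.05. Per length Cfl1 was above Tmod2, at 1112 against 408 TPM, with no overlap between libraries. The filament-severing cofilins differed, with Cfl1 above Cfl2 by 3.71 ± 0.18 (log2 TPM, SD, n = 3). The profilins, which charge actin monomers, were nearer, with Pfn2, the neuronal form, above Pfn1 by 0.81 ± 0.35. Pfn2 had 274, 204 and 231 CPM, and Pfn1 had 79.7, 90.9 and 102 CPM.

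In the membrane skeleton, the spectrins showed the widest spread between libraries. Sptan1, the α-II subunit that pairs with every neuronal β-spectrin, had 294, 386 and 177 CPM. Its partner Sptbn1, β-II spectrin of the axonal lattice, had 379, 484 and 271 CPM, and Sptbn4, the β-IV form of axon initial segments and nodes, had 22.8, 31.2 and 28.5 CPM. Sptan1 and Sptbn1 were both highest in replicate 2 and lowest in replicate 3, and with merged exons they were at 107 and 108 TPM, a mean difference of -0.05 ± 0.15 (log2 TPM, SD, n = 3). With the other lengths Sptan1 was below Sptbn1 in 3 of 3 libraries, by -0.51 with coding length, -0.25 with the longest transcript and -0.26 with unshared windows.

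Ank3 (ankyrin-G), which organises the axon initial segment, had 691, 639 and 569 CPM. Ank1, known from red cells and also found in neurons, was lowest of the ankyrins at 54.1, 73.8 and 62.9 CPM. Ank2 (ankyrin-B), the ankyrin of the axon shaft, lay below Ank3 per length by 0.32 ± 0.12 (a log2 TPM difference of -0.32). Of the adducins, Add2 had 366, 393 and 402 CPM and Add3 106, 114 and 96.5 CPM. Add1 and Add2 overlapped across libraries per length, at 203 and 191 TPM, and the sign of their difference turned with CPM or coding length.

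The growth cone messages had a median range of 0.10 log2 units between libraries and the CRMPs one of 0.22, against 0.51 over all genes tested. Their median levels were 808 and 63.2 CPM, against 16.2 CPM over all genes tested, so abundance was not matched. Gap43 had 803, 812 and 858 CPM, Basp1 813, 830 and 780 CPM, and Marcks 138, 118 and 132 CPM. With merged exons Gap43 was exceeded in the set by Tubb4a alone, at 2710 TPM or rank 19 of all genes, though Actb passed it with the longest transcript and Tuba1a and Actb with unshared windows. It was above Basp1 by 0.43 ± 0.094 (log2 TPM), but by 0.023 with coding length, where the libraries differed in sign. Of the CRMPs, Dpysl2 (CRMP2), which promotes axon formation, had 599, 664 and 657 CPM and 78.5% ± 1.5 of summed family TPM. Crmp1 held 10.1% ± 1.1, Dpysl3 5.32% ± 0.45 and Dpysl5 4.65% ± 0.83, the last 2 with overlapping libraries. Dpysl4 was lowest at 17.8, 11.7 and 14.7 CPM.

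Across the families, 21 pairs of genes were contrasted within each library. In 20 of them the difference in TPM with merged exons had 1 direction in 3 of 3 libraries, the exception being Sptan1 minus Sptbn1. With the longest transcript or unshared windows all 21 did, and with coding length or CPM 19 did, the exceptions being Tubb2a minus Tubb5 and Gap43 minus Basp1. Each of the 20 had p = 0.25 when the signs of the 3 differences were flipped in an exact permutation test (two-sided), the smallest that 3 libraries allow, and 0.263 after Benjamini-Hochberg adjustment over the 21, so no contrast could pass 0.05. Between genes next to each other in the TPM order of a class, 6 of 41 pairs overlapped between libraries. They were Tuba1b and Tuba4a, Map1a and Map7d1, Stmn1 and Stmn4, Sptbn1 and Sptan1, Add1 and Add2, and Dpysl3 and Dpysl5. The sign of the mean held under every length, pseudocount and left-out library tried for 15 of the 21 contrasts.

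**Figure D4:**
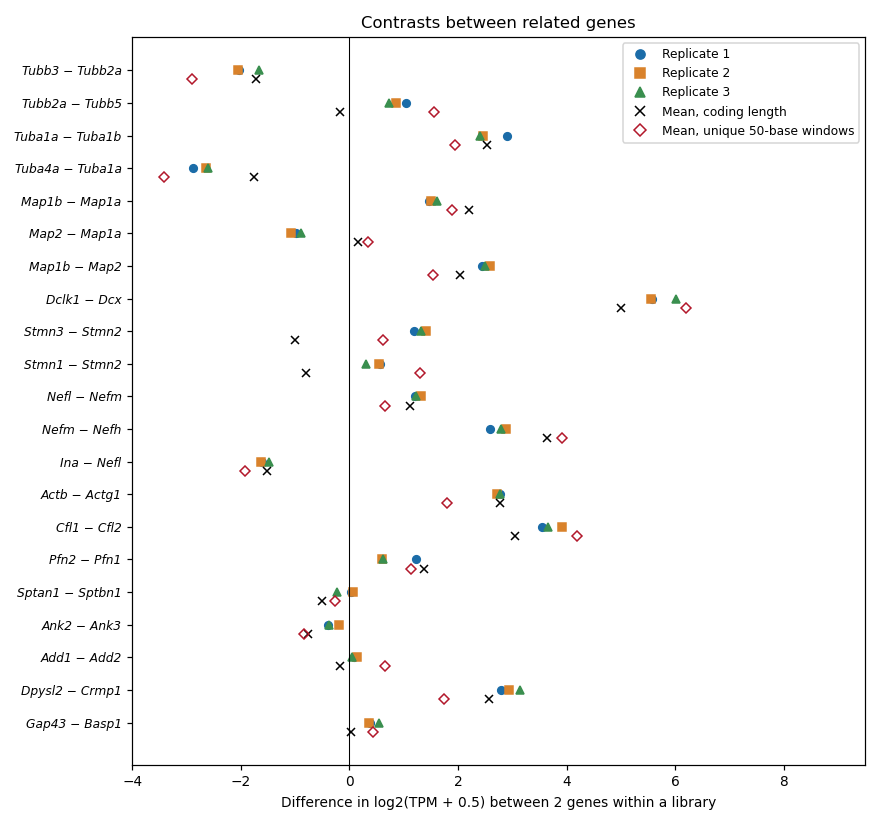
Differences in log2(TPM + 0.5) between the first and the second gene of 21 pairs (horizontal axis), with 1 symbol per replicate. Crosses and open diamonds give the mean with coding length and with unshared 50-base windows as the length. Points of 1 pair lie on both sides of 0 among replicates for Sptan1 minus Sptbn1, and the crosses lie on the other side of 0 for 5 pairs.

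Variation between libraries was tested with the goodness of fit of a single mean per gene in edgeR, over 14774 genes with 10 or more counts in a library. In simulated data this test recovered 22% of genes moved 2-fold in 1 library and 95% of those moved 4-fold. Most 2-fold differences would therefore be missed among genes like those moved. The moved genes were drawn at random above a floor of mean counts and were not matched to the members in abundance. The share of 2-fold differences that would be missed among the members was not measured. At an adjusted p of 0.05, 36 genes (0.244%) were called, and of the 55 members 1 was, Sptan1. It had an adjusted p of 0.0066 in edgeR with a range of 1.12 log2 units between replicates 2 and 3. At an unadjusted p under 0.05 the background was 7.22% of genes, and 2 of 55 members passed, Sptan1 and Sptbn1; Sptbn1 had an adjusted p of 0.176. The call on Sptan1 did not hold without replicate 2 (adjusted p = 0.362), without replicate 3 (0.868) or with a common dispersion (0.85), and held without replicate 1 (0.00073).

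A range above 1 log2 unit occurred in 24.0% of the genes tested and in 1 of 55 members, again Sptan1. Among the 10925 genes tested that were at least as abundant as the lowest member, that share was 9.62%. The median range of members was 0.24 log2 units, against 0.51 over all genes tested and 0.39 over those at least as abundant. Median levels in these sets were 265, 16.2 and 30.1 CPM, so the members were not compared with genes of like abundance. After Sptan1 the widest ranges were 0.89 for Tubb6, 0.84 for Sptbn1, 0.80 for Dclk2 and 0.76 for Dcx, all 5 lowest in replicate 3. The median deviation of members from their own mean was 0.01, 0.04 and -0.02 log2 units in replicates 1, 2 and 3. Replicate 1 was highest for 21 of 55 members (38.2%), against 34.1% of genes tested, and replicate 3 lowest for 25 of 55 (45.5%), against 34.3% of genes tested.

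Genes with long coding sequences were low in replicate 3 across the tables, a grouping chosen after the values were seen. Of 367 genes tested with a coding length of 6000 bases or more, 204 (55.6%) were lowest there, with median deviations of 0.06, 0.05 and -0.10 log2 units. The 7 members of that length were Map1a, Map1b, Sptan1, Sptbn1, Sptbn4, Ank2 and Ank3, and 6 of them were lowest in replicate 3, all but Sptbn4. Their median deviations were 0.08, 0.15 and -0.20. The part of this in the variation of Sptan1 and Sptbn1 was not tested.

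**Figure D5:**
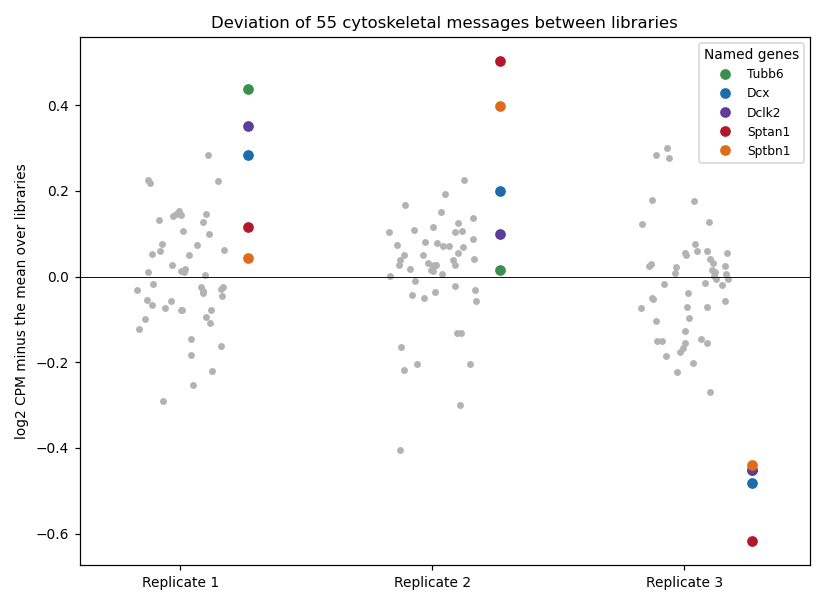
Deviation of log2 CPM from the gene's mean over libraries (vertical axis) for the 55 members in each replicate, 1 dot per gene, with the 5 genes of widest range in colour and offset to the right. Sptan1 lies at 0.12, 0.50 and -0.62 in replicates 1, 2 and 3, and the 5 coloured genes are the lowest dots in replicate 3.

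A further 81 cytoskeletal genes that are no members were followed as lists, and 80 had a row in the files. Of these, 71 reached 1 CPM in every library. Of the 75 tested in edgeR, 0 were called at an adjusted p of 0.05, 3 had an unadjusted p under 0.05, and a limma variance test called 0. Their median was 52.2 CPM, against 265 CPM for the members.

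Of 7 other tubulins, Tuba3a, Tuba3b, Tubal3 and Tubb1 had 0 counts in every library, which allows up to 0.238, 0.335 and 0.237 CPM for counting error. Those floors do not cover reads left uncounted for want of a unique place, and shared windows were looked up for members only. The highest of the 7 in CPM and in TPM was the second γ-tubulin Tubg2 at 66.8, 75.4 and 74.6 CPM. Tubulin folding cofactors ran in CPM from 14.9 for Tbcc to 58.8 for Tbca, which holds folded β-tubulin, and in TPM from 9.83 for Tbcd to 363 for Tbca. Among tubulin-modifying enzymes, the deglutamylase Agtpbp1 was highest by CPM at 450, 391 and 420, while Vash2, which removes the terminal tyrosine of α-tubulin, was lowest at 4.29, 2.90 and 6.25. In TPM, which Svbp lacks for want of a length, the highest was Ttll1 at 179.8, against 96.4 for Agtpbp1, and the lowest Agbl4 at 4.58, against 5.20 for Vash2. Svbp, the partner of the Vash enzymes, had 4.61, 12.2 and 1.11 CPM, with an adjusted p of 0.0943 in edgeR. Of 16 other microtubule-binding genes, the end-binding protein gene Mapre2 was highest in CPM and in TPM, at 1122, 1320 and 1311 CPM, and Map10 lowest in both, at 1.43, 4.35 and 6.96 CPM.

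Of 8 other intermediate filament genes, the highest averaged 24.9 CPM. Synm (synemin) had most counts, at 20.5, 25.4 and 28.7 CPM, while in TPM Lmnb2, a nuclear lamin, was at 17.2, Synm at 15.7 and Gfap at 15.6. Nes, the nestin of neural progenitors, was lowest on both scales, at 0.715, 1.34 and 0.079 CPM. The astrocyte filament Gfap had 5.003, 12.05 and 22.3 CPM, with an adjusted p of 0.130 in edgeR. The astrocyte markers, Gfap among them, summed to 1326, 1481 and 1520 CPM but did not share 1 order of libraries. Aqp4 rose, at 16.9, 25.7 and 29.6 CPM, while Aldh1l1 fell, at 8.10, 5.13 and 3.79 CPM. Slc1a2, the largest part of the sum, had 926, 1062 and 966 CPM. Further actin regulators ran in CPM from 2.48 for Gsn (gelsolin) to 541 for Cap2, an actin-monomer recycling protein, and in TPM from 3.94 for Gsn to 1235 for Tmsb4x, which binds actin monomers. In the wider membrane skeleton, Epb41l1, a neuronal protein of the 4.1 family that binds spectrin and actin, was highest by CPM at 529, 655 and 594 CPM. The red cell β-spectrin Sptb had 43.8, 83.4 and 46.4 CPM, with an adjusted p of 0.274 in edgeR. It was highest in replicate 2 and lowest in replicate 1, whereas Sptan1 was lowest in replicate 3. Of 7 other growth cone and axon genes, Rtn4, which encodes Nogo, was highest in CPM and in TPM, at 643, 546 and 560 CPM. Its receptor Rtn4r was lowest by CPM at 42.9, 51.8 and 45.3, while in TPM Enah was lowest at 81.7, against 120.5 for Rtn4r.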

How the data were processed

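RNA bound to tagged ribosomes was measured in 3 libraries of 1 group. For each library the authors deposited whole-number counts by gene symbol; reads were aligned with STAR 2.0.0e to mm10 and counted with HTSeq, per the submitters' processing notes. Not given in the sources used here are the counting annotation, its settings and the read length. Lines naming no gene held 27.2% to 28.3% of count lines and were left out.

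The members and gene lists were chosen with earlier results of these data known. All members were accounted for; those given in full were the highest and lowest of each class, all tubulins, neurofilaments, stathmins and doublecortins, and genes called as varying, with the highest and lowest gene of each further list. Some genes and sequences that these choices would name are not reported here. Any gene named beyond these was picked with its values in view.

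CPM used totals over named genes, with Rn45s among them. With Rn45s left out of the totals, the median member had 285 CPM, against 265 CPM with it. The median deviations of members were then -0.0004, 0.035 and -0.0008 log2 units in replicates 1, 2 and 3. TPM used merged exon lengths of GENCODE M21 (mm10), matched by symbol for 87.1% of symbols with a count. Of the further lists, Svbp and the Epb41 genes were matched through RefSeq synonyms, and Sptbn5 had no row. Log2 values had a pseudocount of 0.5. Levels over all genes were set beside the members as background.

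Variation between libraries was tested in edgeR 4.0.16 (intercept-only negative binomial model, TMM, trended dispersion, deviance against chi-square, Benjamini-Hochberg adjustment), because 1 group leaves no contrast for a quasi-likelihood test. The test was run first on simulated data with known answers, where it recovered 22% of 100 genes moved 2-fold and 95% of 100 moved 4-fold. It made 8 false calls there. As alternatives, size factors of DESeq2 1.42.0, a variance test in limma 3.58.1, other filters and dispersions, other lengths and leaving out each library were tried. Software was Python 3.11.15 with pandas 2.3.3, scipy 1.17.1, numpy 2.4.6 and matplotlib 3.10.9, and R 4.3.3. The edgeR p-values set the spread of a gene between these pools of mice against the trend over genes of like abundance. Those of the permutation test rest on the signs and sizes of the 3 differences within libraries. Each library was 1 pool, so differences between pools and between library preparations cannot be told apart. Floors for a count of 0 (3 counts) cover counting error alone, because PCR copies could not be told from separate molecules.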

Additional observations from a re-analysis of the deposited data

How the results depend on the processing

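No comparison of groups, paired or not, was possible because the 3 libraries form 1 group. The contrasts between genes were paired within each library. The number of libraries limits what the tests can call, and levels of members with shared windows are limited by uncounted reads. Windows unique in the genome were not run, for want of a genome sequence; windows unique among annotated transcripts, chosen after seeing the data, took their place. The ratios under other lengths and the marker sum without Sox11 were likewise chosen after seeing the data.

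The count of varying genes was 36, and 1097 with a common dispersion, 12 with limma and 18 at an adjusted p of 0.01, and ranged from 16 to 21 with 1 library left out. Of the genes called with limma 11 were among the 36, and with a common dispersion 26 were. The count of varying members was 0 with a common dispersion and 0 to 1 with a library left out. The count of varying further cytoskeleton genes was 2 with a common dispersion. DESeq2 size factors and other filters kept Sptan1 called.

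The contrasts that turned sign, in log2 TPM, were these. With coding length, Tubb2a minus Tubb5 was -0.17, Map2 minus Map1a 0.16, Stmn3 minus Stmn2 -1.01, Stmn1 minus Stmn2 -0.81 and Add1 minus Add2 -0.18. With CPM, Tubb2a minus Tubb5 was -0.17, Stmn3 minus Stmn2 -0.996, Stmn1 minus Stmn2 -1.07 and Add1 minus Add2 -0.16. Map2 minus Map1a was 0.36 with the longest transcript and 0.34 with unshared windows. Sptan1 minus Sptbn1 ranged from -0.10 to 0.042 with 1 library left out, 0.042 being the value without replicate 3.

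Family shares of the leading gene (%) moved by more than their SD with the length definition. With coding length they were 67.1 for Tubb4a, 65.6 for Tuba1a, 20.6 for Stmn3, 72.9 for Dpysl2, 56.4 for Sptbn1, 57.5 for Ank3 and 40.9 for Add1. With the longest transcript they were 63.9 for Tubb4a, 70.2 for Tuba1a, 48.6 for Nefl, 29.5 for Stmn3, 67.2 for Dpysl2, 52.0 for Sptbn1, 59.5 for Ank3 and 51.7 for Add1. With CPM they were 67.1 for Tubb4a, 64.9 for Tuba1a, 47.3 for Nefl, 20.9 for Stmn3, 70.4 for Dpysl2, 55.01 for Sptbn1, 52.5 for Ank3 and 41.3 for Add1. With unshared windows they were 52.0 for Tubb4a, 51.5 for Nefl, 25.3 for Stmn3, 67.1 for Dpysl2, 52.2 for Sptbn1, 59.4 for Ank3 and 51.4 for Add1. Median levels, library deviations and the number of members at 1 CPM or more stayed within the spread of the libraries under the totals, scales and left-out libraries tried.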
